A study of Mus musculus with 9 samples.

Results

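Microglia meet extracellular nucleotides, adenosine and the lipid lysophosphatidylserine through a small set of surface proteins. Of the genes that encode such proteins, 8 were followed here. They were P2ry12, P2ry13, P2ry6, P2rx4, P2rx7, Adora3, Gpr34 and Entpd1, chosen by gene symbol as 8 of the 23238 symbols in the count tables. All 8 were found, each on a single entry, and all 8 passed the filter on low counts. RNA was measured on day 1 in cells sorted from the brains of female wild-type C57BL/6N adult mice by a gate on CD45, CD11b and P2ry12. The 9 libraries fell into 3 groups of 3, with the cells of 3 mice pooled for each. Normal mice had no treatment. NMO mice received human IgG against the astrocyte water channel aquaporin-4 (NMO-IgG) together with human complement in the striatum of one side, which models an acute lesion of neuromyelitis optica. The NMO+CL group received the same injection after intraperitoneal clodronate liposomes, which deplete circulating monocytes and other phagocytes. No group with control IgG or with empty liposomes was analysed here, so antibody, complement and injection cannot be told apart in one comparison, nor clodronate and liposome in the other. The product of P2ry12 was itself the receptor on which the cells were gated in every group, and the gate read the surface protein while the counts read the transcript.

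ATP and ADP leave damaged cells and act on P2X receptors, which are ATP-gated cation channels, and on P2Y receptors, which couple to G proteins. Ectonucleotidases such as the Entpd1 product, CD39, strip phosphates from ATP and ADP, and the adenosine formed further on acts on a separate class of receptors. In resting microglia the P2ry12 receptor steers fine processes towards nucleotide sources, and its transcript is a widely used sign of the homeostatic state. Gpr34 encodes a receptor for lysophosphatidylserine whose sequence places it near P2ry12 among the P2Y-like receptors.

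The libraries held 5788234 to 7837219 counts. The ribosomal RNA entry Rn45s took 16.0% to 31.0% of them. Microglial identity of the sort was checked on 8 markers, including Tmem119, Csf1r and Cx3cr1. None of the 8 was at 0 in any library. Their summed level was 30318 to 36859 CPM (read counts over the library size after TMM scaling) for the Normal libraries, 25502 to 30577 for NMO and 17922 to 27576 for NMO+CL. Of the 8 markers, 1 was called lower in NMO against Normal and 2 in NMO+CL against NMO, while the comparison of NMO+CL with Normal called 6 lower. Summed markers of neutrophils ran from 97.8 to 564 CPM in Normal, from 150 to 461 CPM in NMO and from 291 to 1321 CPM in NMO+CL, and 0 of 8 passed the test in any comparison. Monocyte markers summed to at most 75.9 CPM, lymphocyte markers to at most 7.17 CPM with Cd3e at 0 in every library, and mast cell markers to at most 5.60 CPM. Neutrophil markers were highest in Normal replicate 1 (564 CPM against 97.8 and 127 in the other Normal libraries) and NMO+CL replicate 1 (1321 CPM against 291 and 515). In NMO+CL against Normal, the call of P2rx7 was lost without Normal replicate 1 (log2 fold change −0.63, from −0.73 with all libraries). Without NMO+CL replicate 1 that of Entpd1 was lost (−0.61, from −0.72) and P2ry6 was called (0.83, from 0.67). Such losses were not limited to the libraries highest in neutrophil markers. Leaving out NMO+CL replicate 2 cost both P2rx7 (−0.67) and Entpd1 (−0.73) their calls. The Entpd1 call likewise did not survive dropping replicate 2 (−0.67) or 3 (−0.72) of Normal, yet survived dropping replicate 1. The part of neutrophils in these calls was not tested. The 6 border macrophage markers summed to between 160 and 308 CPM in Normal and to between 214 and 408 CPM in NMO+CL. Within NMO, replicate 2 had 8.62 CPM against 187 and 166 in the others. Cbr2 made up most of these sums, with 159, 0 and 155 CPM in NMO and 185, 247 and 395 CPM in NMO+CL, while Mrc1 overlapped between these groups and Cd163 was at 0 in both. Of the 6, 5 were tested and 0 called in any comparison, and the part of these cells in the results was not tested. Without NMO replicate 2 the same number of the 8 genes was called in every comparison.

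The genes lie on 5 chromosomes (GENCODE M21 annotation of GRCm38, the build called mm10). P2ry12 (chr3:59216272-59262871) and P2ry13 (chr3:59207892-59210882) stand in line on the minus strand with 5389 bases between them. P2rx7 (chr5:122643911-122691432) and P2rx4 (chr5:122707544-122729738) stand in line on the plus strand with 16111 bases between them. P2ry6 is at chr7:100937630-100974649 on the minus strand. The other members are on the plus strand, with Adora3 at chr3:105870858-105908926, Gpr34 at chrX:13632089-13640858 and Entpd1 at chr19:40612366-40741602. Promoter sequence from RefSeq (GRCm38.p6) was held for 6 of the 8 genes, all except P2ry6 and Gpr34. The windows shown are the 250 bases before the first listed start of 4 genes. These are the genes with an entry that were called lower in NMO+CL than in Normal (as were 4.43% of all genes tested). Whether the genes share regulation was not tested, and the windows are printed only to be read side by side. They are P2ry12 (chr3:59262986-59263235, minus strand), P2ry13 (chr3:59210883-59211132, minus strand), P2rx7 (chr5:122643677-122643926, plus strand) and Entpd1 (chr19:40612116-40612365, plus strand), each written 5′ to 3′ on the strand of the gene, with motif matches in capitals.
P2ry12: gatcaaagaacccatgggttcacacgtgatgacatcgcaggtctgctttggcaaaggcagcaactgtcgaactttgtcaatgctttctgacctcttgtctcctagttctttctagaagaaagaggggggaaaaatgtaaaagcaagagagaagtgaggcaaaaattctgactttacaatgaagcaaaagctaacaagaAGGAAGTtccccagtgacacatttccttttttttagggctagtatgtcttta
P2ry13: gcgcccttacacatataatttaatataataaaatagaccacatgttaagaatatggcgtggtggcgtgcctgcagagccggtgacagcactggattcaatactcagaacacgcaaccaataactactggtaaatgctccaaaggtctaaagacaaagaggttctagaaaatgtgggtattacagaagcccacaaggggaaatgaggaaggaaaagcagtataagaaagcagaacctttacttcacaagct
P2rx7: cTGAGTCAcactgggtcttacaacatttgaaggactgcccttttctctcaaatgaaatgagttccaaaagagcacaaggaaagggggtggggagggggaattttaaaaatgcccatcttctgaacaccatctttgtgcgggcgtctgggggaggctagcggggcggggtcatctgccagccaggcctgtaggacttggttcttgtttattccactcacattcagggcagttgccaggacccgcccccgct
Entpd1: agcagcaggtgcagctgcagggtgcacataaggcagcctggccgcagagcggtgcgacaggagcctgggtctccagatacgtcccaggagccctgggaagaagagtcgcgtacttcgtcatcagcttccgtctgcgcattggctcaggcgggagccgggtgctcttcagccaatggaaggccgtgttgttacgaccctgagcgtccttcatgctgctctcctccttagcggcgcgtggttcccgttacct
Motifs of 3 factor families common in macrophages were searched on both strands. They were AGGAAGT for the ETS family, which includes PU.1, TGANTCA for AP-1 and GAAANNGAA for IRF factors. The capitals in P2ry12 mark an ETS match whose distance from the start is 52 bases, and those in P2rx7 an AP-1 match at the far edge of the window, 249 bases out. The P2ry13 and Entpd1 windows held none of the 3 motifs, nor did the windows before a second listed start of P2rx7 and of Entpd1. Among the other members, the Adora3 window held an ETS and an AP-1 match and the P2rx4 window none, and no matches overlapped. Of 32851 mouse promoter windows of the same length, 7.69% held the ETS letters, 6.75% the AP-1 letters and 7.13% the IRF letters. A match is only a description of the letters, and none of the 3 motifs was present in all 4 windows shown.

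**Figure D1:**
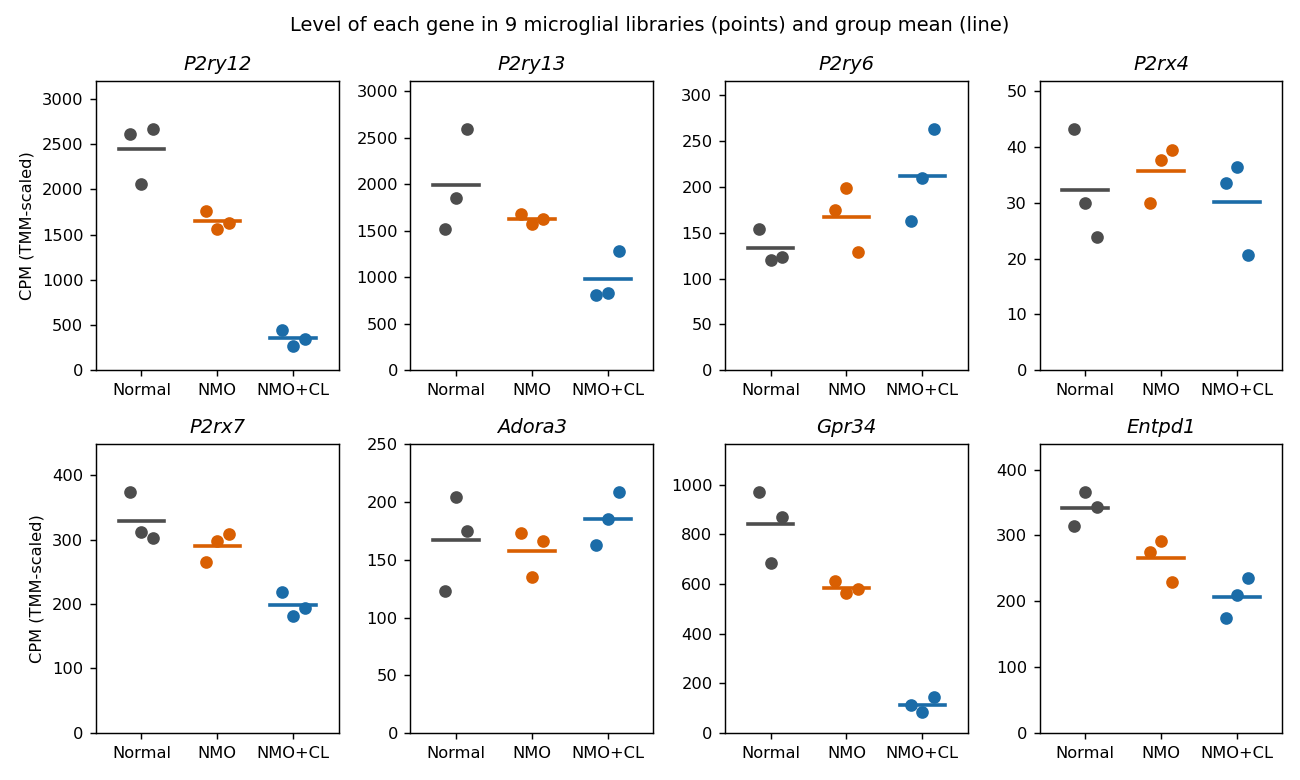
Level of each of the 8 genes in CPM (linear axis from 0, a separate scale for each gene) in the Normal, NMO and NMO+CL libraries. Points are the 3 libraries of a group, from replicate 1 to 3 left to right, and lines are group means; the NMO+CL points of P2ry12 and Gpr34 lie far below those of both other groups, from 266 to 449 CPM and from 83.1 to 143 CPM.

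P2ry12 encodes a receptor coupled to inhibitory G proteins that is also the ADP receptor of platelets. It stood at 2608, 2055 and 2665 CPM in the Normal libraries, at 1756, 1558 and 1629.5 CPM in NMO, and at 449, 266 and 344 CPM in NMO+CL. The 3 groups did not overlap, in the order Normal, NMO, NMO+CL. Against NMO the NMO+CL level was 4.67-fold lower (log2 fold change −2.22, SE 0.19, edgeR adjusted p = 1.73e-05), and against Normal it was 6.92-fold lower (log2 fold change −2.79, SE 0.20, edgeR adjusted p = 4.62e-07). The step from Normal to NMO did not pass the test (log2 fold change −0.57, SE 0.19, edgeR adjusted p = 0.255), although every NMO library lay below every Normal one. In RNA from pooled cells, fewer cells that carry a transcript and less transcript per cell cannot be told apart.

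P2ry13, the neighbouring gene, encodes another ADP receptor of the same G protein class. Its levels were 1521, 1856 and 2593 CPM in Normal, 1675, 1578 and 1631 CPM in NMO, and 813, 834 and 1287 CPM in NMO+CL. Normal and NMO overlapped, and all NMO+CL libraries lay below both. The gene fell 2.03-fold in NMO+CL against Normal (log2 fold change −1.02, SE 0.21, edgeR adjusted p = 0.00424). Against NMO the log2 fold change was −0.74 (SE 0.21, edgeR adjusted p = 0.0969) and did not pass. That comparison passed in 5 of 18 alternative settings, among them the fit without NMO+CL replicate 3, the highest library of its group (adjusted p = 0.0190), and the fit with the replicate number as a block (adjusted p = 0.0346). NMO against Normal gave −0.29 (SE 0.21, edgeR adjusted p = 0.753).

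P2ry6 encodes the UDP receptor, coupled to Gq and known for its part in microglial phagocytosis. It had 154, 120.2 and 124 CPM in Normal, 174, 199 and 129 CPM in NMO, and 163, 210.0 and 263 CPM in NMO+CL. Group means were 133, 167 and 212 CPM, and NMO+CL was the only group that did not overlap with Normal. No comparison passed the test, with log2 fold changes of 0.33 (SE 0.22) for NMO against Normal, 0.34 (SE 0.22) for NMO+CL against NMO and 0.67 (SE 0.22, edgeR adjusted p = 0.0707) for NMO+CL against Normal. The last comparison was near the threshold and passed in 5 of 18 alternatives, including the fit without NMO+CL replicate 1 (adjusted p = 0.0333).

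Of the ATP-gated channels, P2rx7 opens at high ATP and is known as a trigger of inflammasome assembly and interleukin-1β release. It stood at 374, 312 and 302 CPM in Normal, 266, 298 and 309 CPM in NMO, and 219, 181 and 194 CPM in NMO+CL. The NMO+CL libraries lay below all others, while Normal and NMO overlapped. P2rx7 fell 1.66-fold in NMO+CL against Normal (log2 fold change −0.73, SE 0.18, edgeR adjusted p = 0.0139). This call was lost without Normal replicate 1 (adjusted p = 0.0745), without NMO+CL replicate 2 (adjusted p = 0.0823), or with library sizes set by microglial reference genes (log2 fold change −0.35, adjusted p = 0.322). Cx3cr1, among those reference genes, was itself called lower in this comparison under TMM (log2 fold change −0.54, edgeR adjusted p = 0.0378). NMO+CL against NMO gave −0.56 (SE 0.18, edgeR adjusted p = 0.155) and NMO against Normal −0.18 (SE 0.18, edgeR adjusted p = 0.879).

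P2rx4, which opens at lower ATP, had 43.2, 29.9 and 23.9 CPM in Normal, 29.9, 37.7 and 39.4 CPM in NMO, and 33.6, 36.5 and 20.7 CPM in NMO+CL. The 3 groups overlapped, and no comparison passed, with log2 fold changes of 0.14, −0.24 and −0.10 (each SE 0.33) in the order NMO against Normal, NMO+CL against NMO and NMO+CL against Normal. It rested on 129 to 315 counts a library, the fewest of the 8 genes. The last 500 bases of its longest coding transcript resembled transcripts of 1253 other genes (longest match 166 bases at 79.5% identity). Reads with several alignments were kept by the authors. Whether the P2rx4 count holds reads of other genes was not tested.

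Adora3 encodes the A3 adenosine receptor, which couples to inhibitory G proteins. Its levels were 123, 205 and 175 CPM in Normal, 173, 135 and 166 CPM in NMO, and 163, 185 and 209 CPM in NMO+CL. The groups overlapped throughout, and the log2 fold changes of −0.08, 0.23 and 0.15 (each SE 0.21) in the same order all failed the test (edgeR adjusted p = 0.975, 0.747 and 0.791). The last 500 bases of its longest coding transcript resembled 1158 other genes, and 779 bases of its exons are also annotated to Tmigd3 on the same strand. Tmigd3 itself had at most 39 counts in a library.

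Gpr34, the lysophosphatidylserine receptor, had 971, 684 and 871 CPM in Normal, 613, 564 and 579 CPM in NMO, and 112, 83.1 and 143 CPM in NMO+CL. As for P2ry12, the 3 groups did not overlap. NMO+CL was 5.18-fold below NMO (log2 fold change −2.37, SE 0.21, edgeR adjusted p = 1.73e-05) and 7.45-fold below Normal (log2 fold change −2.90, SE 0.22, edgeR adjusted p = 7.18e-07). NMO against Normal was at −0.52 (SE 0.20, edgeR adjusted p = 0.398) and did not pass. P2ry12 and Gpr34 were called lower in NMO+CL in all 18 alternatives of both comparisons, with an adjusted p of at most 7.7e-04 against NMO and 1.8e-05 against Normal.

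Entpd1, whose product CD39 converts ATP and ADP to AMP, had 315, 366 and 343 CPM in Normal, 275, 291 and 229.6 CPM in NMO, and 175, 209.8 and 236 CPM in NMO+CL. Every NMO and NMO+CL library lay below every Normal one, and NMO overlapped with NMO+CL. The fall in NMO+CL against Normal was 1.65-fold (log2 fold change −0.72, SE 0.19, edgeR adjusted p = 0.0195). Both single steps were alike in size, −0.36 (SE 0.18) from Normal to NMO and −0.36 (SE 0.18) from NMO to NMO+CL, and neither passed (edgeR adjusted p = 0.578 and 0.459). The call was lost in 6 of 18 alternatives. These were library totals alone (adjusted p = 0.0511), reference genes (log2 fold change −0.35, adjusted p = 0.259), and the fits without Normal replicate 2 (0.0880), Normal replicate 3 (0.0653), NMO+CL replicate 1 (0.0790) or NMO+CL replicate 2 (0.0704).

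**Figure D2:**
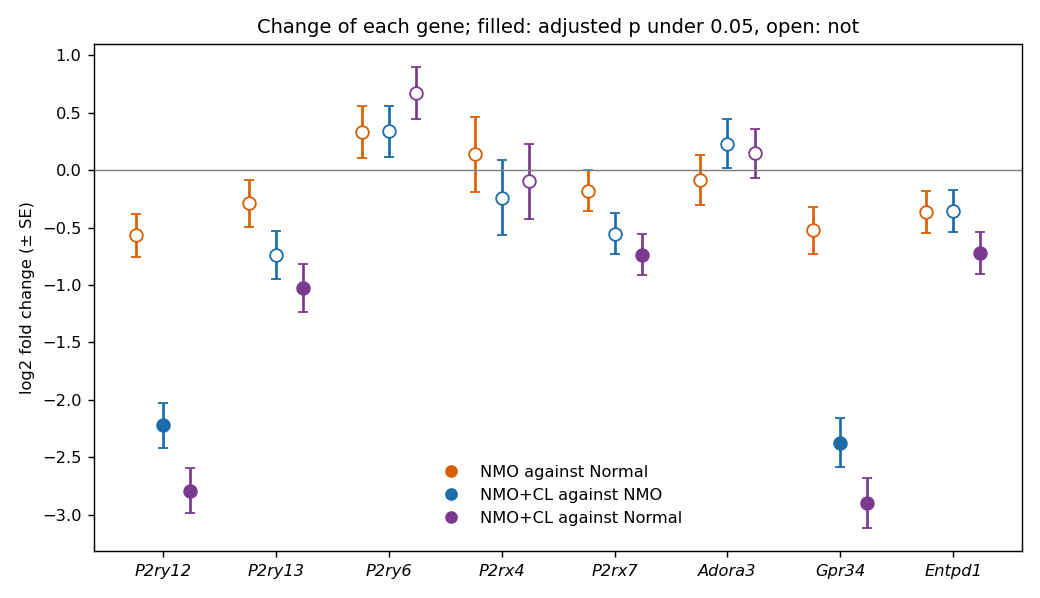
Log2 fold change (vertical axis) of each of the 8 genes in 3 comparisons, by edgeR, with bars of 1 standard error; filled points passed an adjusted p under 0.05. P2ry12 and Gpr34 lie lowest in both comparisons of NMO+CL, and no point of NMO against Normal is filled.

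Counted over the 8 genes, NMO against Normal had 0 called lower and 0 higher by edgeR, with 2 lower and 0 higher at an unadjusted p under 0.05 (P2ry12 and Gpr34). Among all 12292 genes tested, 0.0244% were called lower and 0.472% higher in that comparison, and 3.46% were lower and 6.05% higher at the unadjusted threshold. DESeq2 and limma-voom also called 0 of the 8, against 0.489% lower and 1.32% higher over all genes for DESeq2 and 0.0488% and 0.301% for limma-voom. In NMO+CL against NMO, 2 of 8 were called lower, P2ry12 and Gpr34, and 0 higher, against 1.07% lower and 0.529% higher over all genes. At an unadjusted p under 0.05 these counts were 4 and 0, against 7.47% and 4.92% of all genes. DESeq2 called 4 lower, adding P2ry13 and P2rx7, against 2.26% lower and 1.6% higher over all genes. In NMO+CL against Normal, 5 of 8 were called lower, P2ry12, P2ry13, P2rx7, Gpr34 and Entpd1, and 0 higher, against 4.43% lower and 4.79% higher over all genes. The unadjusted counts there were 5 lower and 1 higher, against 11.3% and 11% of all genes. The latter was P2ry6, which DESeq2 also called, beside 6.36% of all genes lower and 6.48% higher by that tool. The median log2 fold change of the 8 genes was −0.23, −0.46 and −0.73 in the 3 comparisons, beside −0.01, −0.01 and −0.01 for all genes tested. The comparisons share libraries in pairs, so the last one is not separate evidence from the other two.

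Platelet markers are of interest because platelets carry P2ry12. Their summed level over 5 genes ran from 41.2 to 58.5 CPM in Normal through 26.9 to 38.6 CPM in NMO down to 17.0 to 25.0 CPM in NMO+CL. Of the 5, 3 were tested, and 1 was called lower in NMO+CL against Normal (Gp9, log2 fold change −2.31, edgeR adjusted p = 0.00298). In the same order of groups, Treml1 averaged 17.2, 15.6 and 8.96 CPM. Gp1bb was highest in NMO+CL, with means of 1.98, 1.40 and 5.23 CPM, and neither of these was called. The defining platelet genes Itga2b and Ppbp were not tested and near 0, with group means of 0 to 0.357 CPM and 0 to 1.39 CPM. Astrocyte and oligodendrocyte markers summed to 223 to 274 CPM in Normal, 134 to 169 CPM in NMO and 98.3 to 172 CPM in NMO+CL, with 1 of the 5 tested of 8 (Slc1a3) called lower in NMO+CL against Normal. Slc1a3 made up most of the sum (means of 176, 108 and 95.5 CPM), Aqp4 was lowest in Normal (5.06, 8.49 and 7.66 CPM), and Gfap, Aldh1l1 and Mog had group means of at most 0.681 CPM. The part of these cells in the results was not tested.

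Ratios of 2 genes within a library do not depend on how library sizes are scaled, and 5 such ratios were compared over the 3 group pairs by exact two-sided permutation tests (3 against 3, smallest possible p = 0.1, so that no ratio can pass 0.05; adjusted over 15 tests). The neighbours P2ry12 and P2ry13 had a log2 ratio of counts of 0.78, 0.15 and 0.04 in Normal and 0.07, −0.02 and −0.002 in NMO. It was −0.86, −1.65 and −1.90 in NMO+CL. The ratio was lower in every NMO+CL library than in any other, with a mean difference of −1.49 from NMO (SE 0.32, exact p = 0.1, adjusted p = 0.25) and of −1.79 from Normal (SE 0.39, exact p = 0.1, adjusted p = 0.25). For Gpr34 over P2ry12 the ratio had group means of −1.54 ± 0.10, −1.49 ± 0.03 and −1.65 ± 0.37 (SD, n = 3) in the Normal, NMO and NMO+CL libraries. The difference of NMO+CL from NMO was −0.15 (SE 0.21, exact p = 0.7), so a difference of the size of this error would not have been seen. For P2rx7 over P2rx4, group means were 3.39 ± 0.27, 3.03 ± 0.10 and 2.75 ± 0.46, and NMO+CL overlapped with both other groups.

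Against Tmem119, a microglial membrane gene that was called in no comparison, P2ry12 had log2 ratios of 0.06, −0.75 and −0.34 in Normal, −0.66, −0.83 and −1.07 in NMO and −2.33, −3.00 and −3.17 in NMO+CL. Gpr34 over Tmem119 gave −1.37, −2.33 and −1.95 in Normal, −2.18, −2.30 and −2.56 in NMO and −4.33, −4.67 and −4.43 in NMO+CL. Both ratios were lower in every NMO+CL library than in any other library, and both overlapped between Normal and NMO. The NMO+CL to NMO differences were −1.98 (SE 0.28) for P2ry12 and −2.13 (SE 0.15) for Gpr34, each with exact p = 0.1 and adjusted p = 0.25. These differences depend on the gene used as denominator, since Tmem119 changed less than most of the microglial markers. In NMO+CL against NMO, the markers Siglech (log2 fold change −1.16, edgeR adjusted p = 0.00291) and Olfml3 (−0.77, edgeR adjusted p = 0.0435) were called lower.

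**Figure D3:**
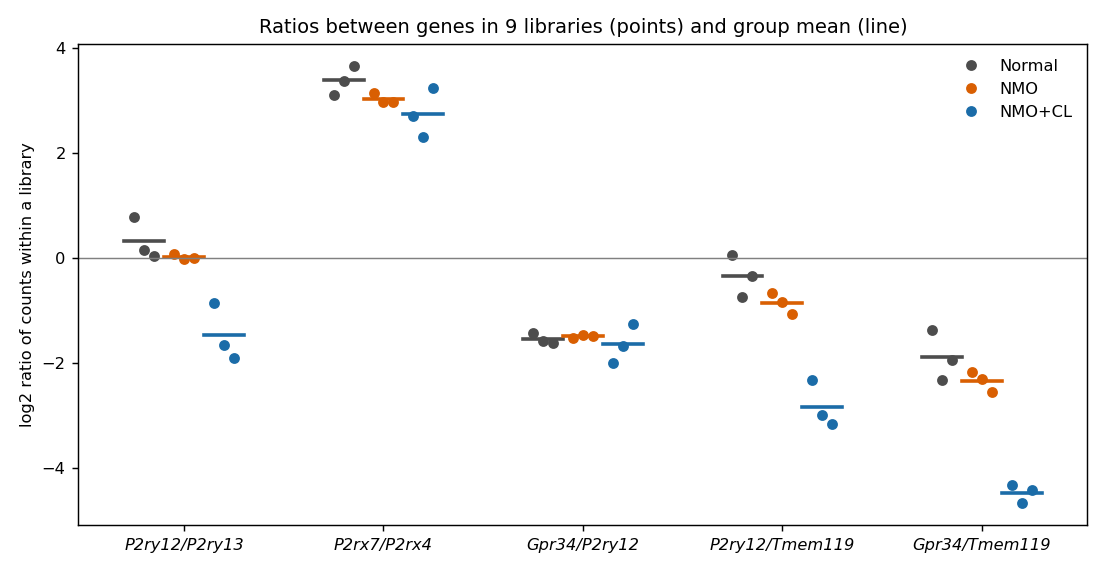
Log2 ratio of the counts of 2 genes within each library (vertical axis) for 5 gene pairs. Points are the 3 libraries of the Normal, NMO and NMO+CL groups and lines are group means; P2ry12/P2ry13 and both ratios to Tmem119 are lowest in NMO+CL, while Gpr34/P2ry12 overlaps between all groups.

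Likeness between genes was described by the Pearson correlation of log2 CPM over the 9 libraries, among 6223 genes with a mean of at least 20 CPM. The 9 points share the 3 groups, so a high value can come from the group means alone, and no test was made. Nearest to P2ry12 were Col27a1 (r = 0.991), Gpr34 (0.990) and Marcks (0.986). Nearest to Gpr34 were Cd2ap (0.993), P2ry12 (0.990) and Pmepa1 (0.981). P2ry12 and Gpr34 thus ranked second for each other. After removal of group means their correlation was 0.653, while P2ry12 and P2ry13 had 0.854 over all libraries and 0.06 within groups. For P2rx7 the nearest were Asb2, Bcl10 and Mbnl1 (0.987 to 0.989), for P2ry13 Basp1, Sema4d and Gal3st4 (0.966 to 0.976), and for Entpd1 Ywhah, Foxk1 and Arrb1 (0.967 to 0.987). The genes that did not fall had other neighbours, with Serp1, Rpl3 and Rn4.5s for P2ry6 (0.965 to 0.986), Ppip5k2, Mknk1 and C330007P06Rik for P2rx4 (near 0.912 each), and Pon2, Prpf38b and Lrrc47 for Adora3 (0.928 to 0.963).

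The rest of the pathway was read from 58 further genes listed by role, of which 57 were in the tables and 36 were tested. In NMO against Normal, 0 of the 36 were called by edgeR (5 at an unadjusted p under 0.05, of them 3 lower), 0 by limma-voom and 2 by DESeq2. Over all genes, edgeR called 0.0244% lower and 0.472% higher there, with 3.46% and 6.05% at the unadjusted threshold. The shares were 0.0488% and 0.301% for limma-voom and 0.489% and 1.32% for DESeq2. NMO+CL against NMO called 2 lower and 0 higher, against 1.07% and 0.529% of all genes. NMO+CL against Normal called 4 lower and 2 higher, against 4.43% and 4.79% of all genes, and 2 of 36 is near that share. The median log2 fold change of the 36 was −0.06, −0.07 and −0.07 in the 3 comparisons, beside the −0.01 of all genes in each.

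Among other P2Y receptors, only P2ry2, a receptor for ATP and UTP that lies on chromosome 7 beyond P2ry6 (its annotated span begins 21919 bases after that of P2ry6 ends), was tested. It had 0 counts in all 3 Normal libraries, 28, 20 and 0 counts in NMO, and 44, 94 and 113 counts in NMO+CL. The NMO+CL mean of 13.2 CPM was at least 27.8-fold higher than Normal when each Normal library is set at the 3 counts that a count of 0 allows (edgeR adjusted p = 0.00400). The gene passed the low-count filter only through NMO+CL, the group in which it is high, and did not pass it in the fit of Normal and NMO alone, so the call is not support for a change. Such limits cover counting error only. The other P2Y receptors listed (P2ry1, P2ry4 and P2ry14) did not pass the filter. Of the other P2X and adenosine receptors, P2rx1 and Adora1 were tested and neither was called.

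Of the genes around nucleotide release, breakdown and adenosine uptake, 16 were tested (3 for ATP release, 6 other hydrolases and 7 for adenosine handling). The only call was Slc29a2, an equilibrative nucleoside transporter, at 1.12, 3.91 and 5.38 CPM in Normal and 7.73, 19.1 and 27.5 CPM in NMO+CL (log2 fold change 2.38, SE 0.65, edgeR adjusted p = 0.0284). NMO lay between them in mean, at 12.3 CPM. It did not pass in 5 of 18 alternatives, which were limma-voom and the fits without Normal replicate 1, Normal replicate 2, NMO+CL replicate 2 or NMO+CL replicate 3 (adjusted p up to 0.114). Nt5e (CD73), the enzyme that makes adenosine from AMP, averaged 1.12 CPM in Normal, 0.480 CPM in NMO and 1.10 CPM in NMO+CL, and no difference was detectable at this depth. Of the lysophosphatidylserine genes, the lipases Abhd12 and Abhd16a, which act in its metabolism, and the phospholipase Pla1a were tested and none was called.

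Of 16 signalling partners, 14 were tested. Rgs10, a regulator that speeds the switching off of G proteins, had 610.5, 732 and 797 CPM in Normal, 441, 392 and 756 CPM in NMO and 315, 269 and 247 CPM in NMO+CL. It fell in NMO+CL against Normal (log2 fold change −1.36, SE 0.23, edgeR adjusted p = 9.9e-04) in all 18 alternatives, and against NMO (−0.93, SE 0.23, edgeR adjusted p = 0.0457) in 6 of 18. Pik3cg, the phosphoinositide kinase driven by G protein subunits, fell against NMO (−1.01, SE 0.22, edgeR adjusted p = 0.0262) and against Normal (−1.04, SE 0.22, edgeR adjusted p = 0.00624). Its calls were kept in 10 of 18 alternatives against NMO and in 17 of 18 against Normal, reference-gene scaling being the exception. Rgs2, a regulator that acts mainly on Gq, was called lower against Normal (−1.02, SE 0.18, edgeR adjusted p = 0.00124), as was Arrb1, an arrestin that uncouples receptors (−0.93, SE 0.23, edgeR adjusted p = 0.0173, kept in 13 of 18 alternatives). The G protein subunits Gnai2 (1428, 1435 and 1375 CPM as group means), Gnai3, Gnaq, Gna11 and Gna13 were not called in any comparison, nor were Arrb2, Adrbk1, Rgs1, Plcb2 and the potassium channel gene Kcnk13.

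**Figure D4:**
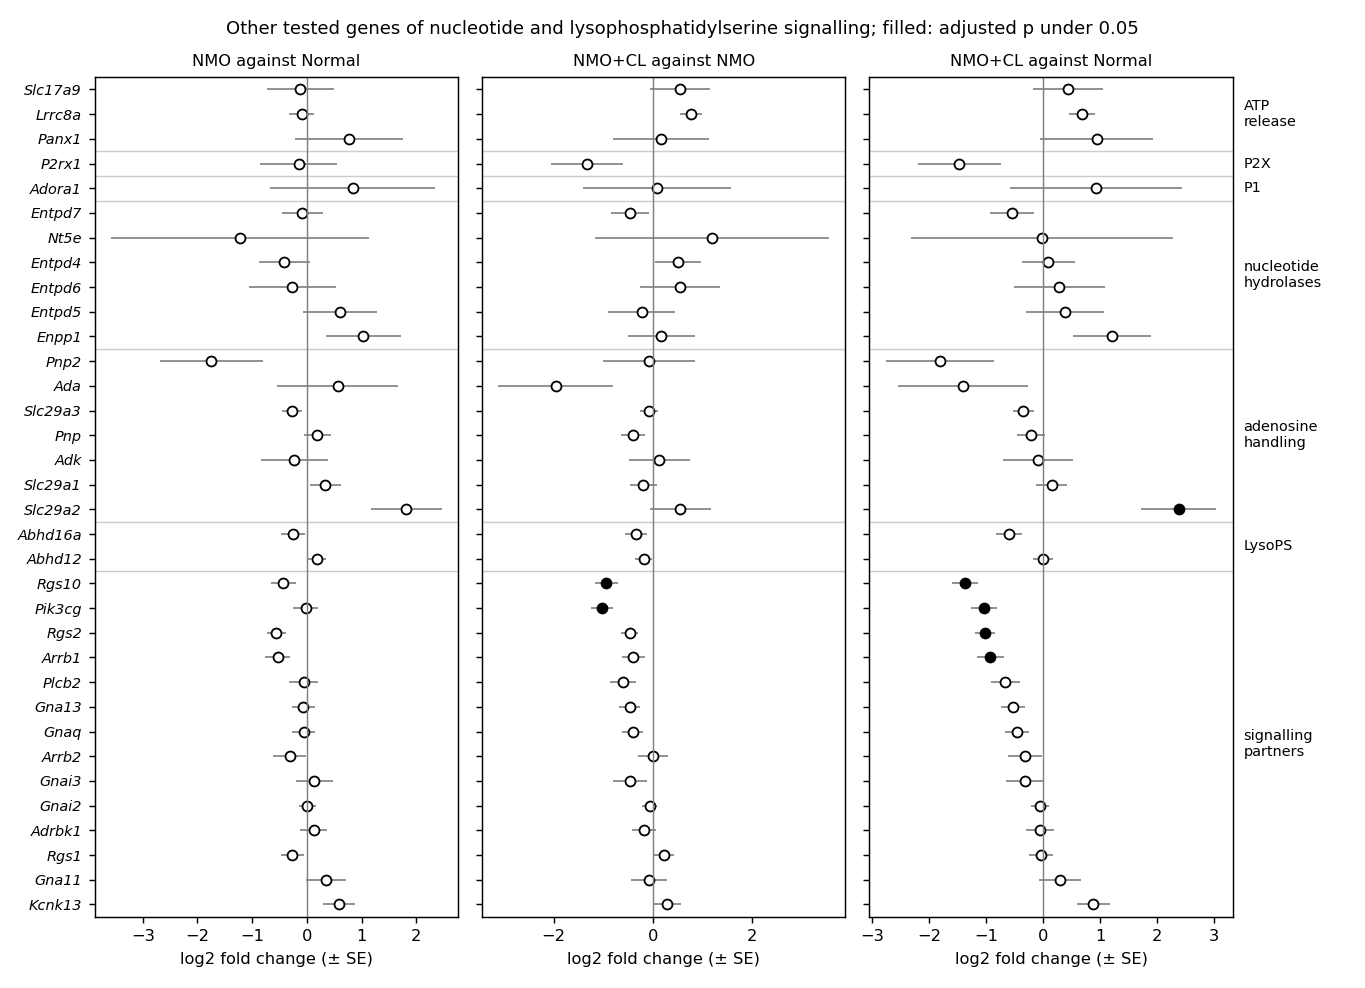
Log2 fold change (horizontal axes, bars of 1 standard error) of 34 tested genes of nucleotide and lysophosphatidylserine signalling in 3 comparisons, grouped by role; filled points passed an adjusted p under 0.05. P2ry2 and Pla1a are not drawn because a group had no counts; the filled points are Rgs10 and Pik3cg in the middle panel and Rgs10, Pik3cg, Rgs2, Arrb1 (lower) and Slc29a2 (higher) in the right panel.

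The strand used in counting was not given in the sources used here, and 2 genes lie across members on the other strand. P2ry12 and P2ry13 are inside the span of Med12l, with 9 exon bases shared with P2ry12, none of them in its last 500 bases, and 0 with P2ry13. Gpr34 is inside the span of Cask with 0 shared exon bases. Med12l had group means of 145, 122 and 76.1 CPM in the order used above (NMO+CL against Normal, log2 fold change −0.93, SE 0.24, edgeR adjusted p = 0.0212). For Cask the means were 63.9, 42.8 and 25.0 CPM (log2 fold change −1.36, SE 0.30, edgeR adjusted p = 0.00748). The Cask call was kept in all 18 alternatives and the Med12l call in 13. Whether reads of these genes and of the receptors were counted to each other was not tested.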

How the data were processed

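RNA was measured with the QuantSeq 3′ kit, which reads transcript ends, in 9 libraries of sorted microglia (3 groups of 3, each a pool of 3 mice), grouped by the labels. The deposited values are read counts per gene: the authors aligned single-end reads with Bowtie2 to mm10, per the labels, and counted unique and multiple alignments with Bedtools. Tool versions, the annotation and the use of strand were not given in the sources used here. The authors described the libraries as independent biological replicates. Replicates differed beyond counting error (chi-square over its degrees of freedom, 16.5 to 42.0).

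Entries with the same symbol (35 symbols) were summed. The filterByExpr step of edgeR 4.0.16 (R 4.3.3) left 12292 genes (count minimum 10, total minimum 15). Counts were scaled by TMM, a trimmed mean of log ratios between libraries, and fitted with a quasi-likelihood model over all 9 libraries, with 1 coefficient per group. Tests were two-sided, with Benjamini-Hochberg adjustment across the genes tested, and a gene was called when its adjusted p was under 0.05. The model gave a common biological coefficient of variation of 0.519. CPM errors are standard deviations. The standard error of an edgeR log2 fold change was derived from the test, as its absolute value over the square root of the quasi-likelihood F. Total counts were 5788234 to 7837219 a library, and at 95% confidence a count of 0 leaves room for 3 counts. Sequence similarity was found with blastn 2.17.0 (e-value limit 1e-05).

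Alternatives were other scalings (RLE, library totals, totals without Rn45s, 8 microglial reference genes), no low-count filter, DESeq2 1.42.0, limma-voom (limma 3.58.1), fits of 2 groups, a replicate block, the 1.5-fold and unadjusted p threshold of the study, and each library left out in turn. The test was tested on simulated data. The 8 genes, the pathway and marker lists and the rule for named genes (members, called pathway genes, the 3 most correlated genes, neighbours within 100 kb) were chosen with earlier results of these data known. A further gene of the microglial marker list is not reported here.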

Additional observations from a re-analysis of the deposited data

How the results depend on the processing

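P2ry12 and Gpr34 kept their direction and their side of the threshold in all 18 alternatives of all 3 comparisons, with log2 fold changes from −2.44 to −1.98 and from −2.58 to −2.17 in NMO+CL against NMO. Over the 8 genes and 3 comparisons, 402 of 432 values kept both, 9 lost a call, 11 gained one and 10 turned sign, and no value that turned sign was called in either setting. Scaling to reference genes raised the median of all genes by 0.15 in NMO against Normal, by 0.23 in NMO+CL against NMO and by 0.38 in NMO+CL against Normal, and library totals alone raised it by 0.11 in the first, so changes under them are relative to those shifts. Adora3 in NMO against Normal went to 0.0084 with library totals and 0.081 with reference genes, and P2rx4 with reference genes went to 0.025 in NMO+CL against NMO, and its value in NMO+CL against Normal went to 0.30. With single libraries left out, the log2 fold change ran from −0.052 to 0.40 for P2rx4 in NMO against Normal, −0.27 to 0.086 for Adora3 in NMO against Normal, −0.27 to 0.17 for P2rx4 in NMO+CL against Normal and −0.029 to 0.32 for Adora3 in NMO+CL against Normal.

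Of the 8 genes, the number called lower in NMO+CL against NMO went from 2 to 4 with DESeq2, and that in NMO+CL against Normal from 5 to 3 with reference genes and to 3 to 5 with a library left out (3 without NMO+CL replicate 2). The number called higher in NMO+CL against Normal went from 0 to 1 with totals without Rn45s, with reference genes, without the low-count filter and with DESeq2. It also went to 1 at 1.5-fold with unadjusted p, and to 0 to 1 with a library left out, the gene being P2ry6. Over all genes, the number called higher there was 720 with totals without Rn45s, 1356 with reference genes, 737 without the filter and 795 with DESeq2. It was 494 without NMO+CL replicate 1, the library whose removal added the call. At an unadjusted p under 0.05 with no fold limit, 11% of all genes were higher. Pathway genes called in NMO against Normal went from 0 to 1 without the filter, 2 with DESeq2, 3 at 1.5-fold with unadjusted p and 0 to 1 with a library left out. Those in NMO+CL against NMO went from 2 to 1 with RLE, 1 with totals without Rn45s, 0 with reference genes, 0 in the fit of 2 groups, 6 at 1.5-fold with unadjusted p and 0 to 2 with a library left out, and those in NMO+CL against Normal from 6 to 10 at 1.5-fold with unadjusted p and to 4 to 6 with a library left out (4 without Normal replicate 2 or NMO+CL replicate 2). Over all genes, reference genes turned 65 higher and 131 lower in NMO+CL against NMO into 79 and 28, and 589 higher and 545 lower in NMO+CL against Normal into 1356 and 248. In NMO against Normal, 58 higher and 3 lower became 162 and 60 with DESeq2, 185 and 38 without the filter and 32 and 2 in the fit of 2 groups. In NMO+CL against NMO these gave 193 and 272, 180 and 316, and 39 and 34.

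Same-numbered libraries of different groups showed no sign of pairing, with correlations of −0.0148 to 0.0302 after removal of group means. The labels only number the replicates, and these values cannot show whether same-numbered pools were handled together. With the replicate block, the 8 genes had 3 called lower in NMO+CL against NMO and 5 called lower against Normal. Of the 12292 genes tested, 133 and 552 were called lower in these fits. The pathway genes called in NMO+CL against NMO went from 2 to 1 with the block. The causes of these changes were not tested. Depth limits P2rx4 most among the 8 genes, with as few as 129 counts in a library.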
